A study of Sus scrofa with 30 samples.

Results

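The epithelial and the mesenchymal tissue of inverted pig teats were compared within the same animal. The comparison used every array labelled as an inverted teat, 10 of the 30 arrays of the series, taken from 5 of its 10 pigs. Each of these 5 pigs gave 1 epithelial and 1 mesenchymal array, and both were paired by the animal number in the sample description. The pigs were peripubertal animals of commercial dam lines, sampled at slaughter at a mean end weight of 110 kg, and teats were classed as inverted or normal by inspection and palpation. Animal 963 was German Landrace and animals 964, 1037 and 1059 were Large White x German Landrace. The breed of animal 1103 was Pietrain x (Large White x German Landrace). All 5 were affected animals, so both layers came from pigs with at least 1 inverted teat. The normal teats of these same 5 animals (10 arrays) and of 5 non-affected animals (10 arrays) served as reference. The series is about the genetic predisposition to this defect. The layer comparison asks which transcripts part the covering and lining tissue of such a teat from the tissue beneath it.

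A teat is a cylinder of skin-covered tissue with an inner canal. Its epithelium includes the skin surface, the lining of the canal and the ducts of the gland, which are marked by keratins and adhesion proteins. The mesenchyme beneath holds fibroblasts, fat, vessels, nerves, smooth muscle and, at the base, muscle of the body wall. During development the epithelial bud and the mesenchyme signal to each other through parathyroid hormone-like hormone (PTHLH) and its receptor PTH1R, through Wnt and BMP proteins and through homeobox factors. An inverted teat does not protrude and cannot be suckled properly.

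Values are log2 probe set summaries as the authors deposited them. They were measured on Affymetrix Porcine Genome arrays, which hold 1 summary value per set of short probes. In every series of 5 values below, the animals stand in the order 963, 964, 1037, 1059 and 1103. A layer difference is the epithelial minus the mesenchymal log2 value of 1 teat, so a positive difference means a higher value in epithelial tissue. The mean of the 5 differences is given with its standard error from limma (SE, n = 5 pairs), and a gene passed when its p adjusted by Benjamini-Hochberg over all probe sets was at most 0.05. Each gene is represented by 1 probe set. The labels do not say how the pieces of tissue were dissected, and the p-values measure only the spread between these 5 teats. In such bulk tissue fewer cells of a type and less RNA per cell cannot be told apart. Array medians ran from 5.76 to 6.04, each array's median correlation with the others of its layer ran from 0.899 to 0.934, and 439 to 752 probe sets per array lay at the lowest value of 0.

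The tissue labels were first set against markers of each cell type. KRT19, a keratin of simple and glandular epithelium, measured 11.43, 11.51, 10.95, 10.69 and 6.87 in epithelial and 11.24, 12.05, 4.8, 10.68 and 9.77 in mesenchymal pieces. Only the pair of animal 1037 parted clearly with the epithelial piece higher, in animal 1103 the mesenchymal piece was higher, and the values of both layers overlapped. EPCAM, an adhesion molecule of epithelial cells, measured 10.43, 10.55, 9.6, 9.27 and 4.69 in epithelial and 10.34, 11.02, 1.17, 9.64 and 8.69 in mesenchymal pieces, with the same pairs standing apart. Averaged over KRT8, KRT18 and KRT19, the keratin level was 10.5, 10.49, 10.18, 9.59 and 6.75 in the epithelial and 10.39, 11.14, 5.19, 9.65 and 8.76 in the mesenchymal pieces. Keratin transcript was therefore present in mesenchymal pieces of 4 of the 5 animals at a level near or above that of the epithelial piece of the same teat, and the label "epithelial" went against the luminal markers in animal 1103.

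Muscle markers gave a second exception. MYLPF, a light chain of fast skeletal muscle myosin, measured 11.47, 9.61, 10.22, 0.74 and 5.33 in epithelial and 3.83, 12.27, 13.44, 13.37 and 11.98 in mesenchymal pieces. The mesenchymal piece was higher in 4 animals and the epithelial piece in animal 963, and the layers overlapped. The fibroblast markers DCN, COL1A2, COL3A1, LUM and VIM did not pass in either direction, with layer differences from -0.25 to 0.26. Of the markers set for this check, KRT5, KRT14, DSG3, TP63, ACTA1, MYH11, PLIN1 and CD79A had no probe set with a single symbol, and CSN3, PTPRC and LEF1 lay below the filter on low values. The layer names below are those of the labels.

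**Figure D1:**
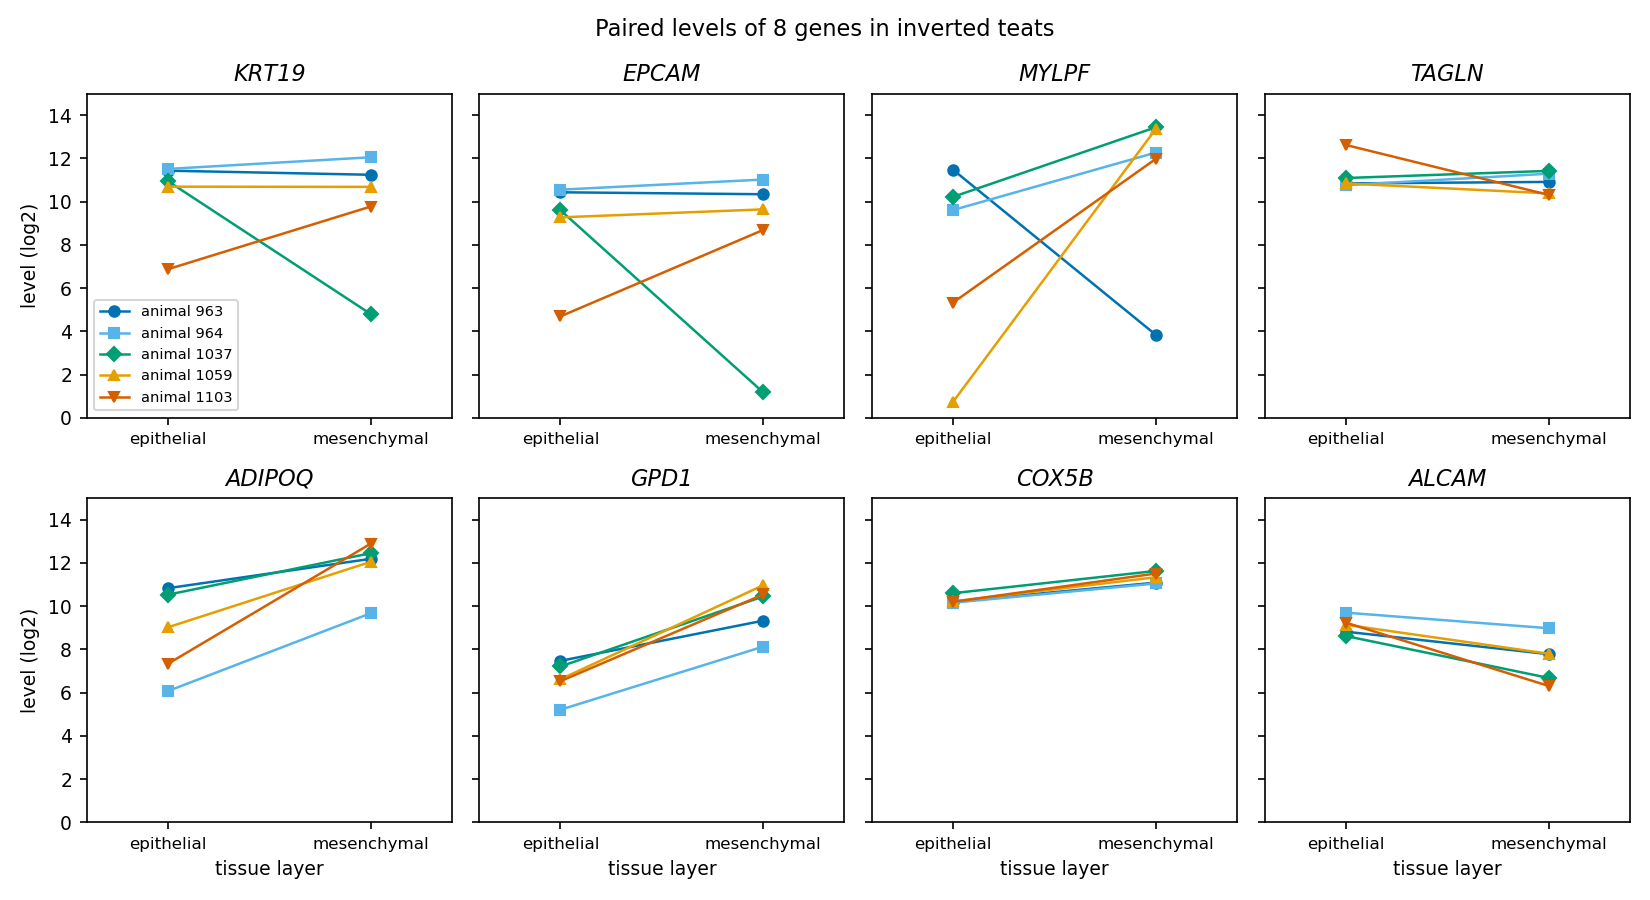
Log2 values of 8 genes in the epithelial and mesenchymal pieces of the 5 inverted teats, with a line joining the pieces of 1 animal. KRT19 and EPCAM part the layers clearly in animal 1037 and run the other way in animal 1103, MYLPF runs the other way in animal 963, and ADIPOQ, GPD1 and COX5B are higher in the mesenchymal and ALCAM in the epithelial piece of every animal.

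The difference was uneven between the layers. Of 17123 probe sets, limma's paired test called 298 (1.74%) with the epithelial value higher and 2197 (12.8%) with the mesenchymal value higher, and 6093 had an unadjusted p under 0.05. With 1 probe set per gene, the calls were 41 of 5957 genes (0.688%) on the epithelial side and 1215 (20.4%) on the mesenchymal side. The median layer difference was -0.26 over these genes. The sign was the same in all 5 pairs for 246 genes (4.13%) with the epithelial value higher and for 2405 (40.4%) with the mesenchymal value higher. Without animal 1037, and again without animal 1059, 0 genes were called. Epithelial calls made up 11.9% of all probe sets called, 25.4% after each array was centred on its median and 34.6% after quantile normalization, which moved the median difference over probe sets from -0.12 to 0.01. After quantile normalization the calls were 33 genes (0.554%) on the epithelial and 144 (2.42%) on the mesenchymal side. Among the genes called without it, 21 of 41 and 144 of 1215 were then still called.

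The largest differences with 1 sign in all 5 pairs were on the mesenchymal side, and the first 3 were genes of fat cells. GPD1, the enzyme that makes glycerol 3-phosphate for fat synthesis, measured 7.47, 5.21, 7.21, 6.62 and 6.53 in epithelial and 9.33, 8.13, 10.45, 10.97 and 10.54 in mesenchymal pieces, a difference of -3.28 ± 0.34 (SE, limma adjusted p = 0.0165). The groups did not overlap, and the lowest mesenchymal value, in animal 964, was above the highest epithelial one, in animal 963. ADIPOQ, the fat cell hormone adiponectin, measured 10.83, 6.07, 10.53, 9.02 and 7.33 against 12.19, 9.67, 12.45, 12.05 and 12.89, a difference of -3.09 ± 0.55 (SE, limma adjusted p = 0.0239). Here the groups overlapped, because animal 964 was low in both pieces, while each animal's own mesenchymal piece was the higher. LIPE, hormone-sensitive lipase, measured 8.94, 5.7, 8.1, 7.52 and 7.65 against 11.02, 9.14, 10.71, 10.52 and 11.61, a difference of -3.02 ± 0.27 (SE, limma adjusted p = 0.0165), with no overlap between the groups.

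The rest of the 10 largest followed with differences of -2.92 ± 0.62 (SE) for PPP1R1A, an inhibitor of protein phosphatase 1, and -2.76 ± 0.37 for UCP3, a mitochondrial uncoupling protein. All 5 epithelial values of UCP3 lay under the 30th percentile of their array, so its difference rests on low epithelial values. It met the filter on low values only through the mesenchymal arrays. ME1, which makes NADPH for fat synthesis, differed by -2.74 ± 0.35 and the long non-coding RNA LOC102163508 by -2.74 ± 0.27. SLC2A5, the fructose transporter, differed by -2.7 ± 0.39, PON3, a paraoxonase, by -2.67 ± 0.39 and CYP2A19, a cytochrome P450, by -2.6 ± 0.42 (limma adjusted p from 0.0165 to 0.0289 over these 7 genes).

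Of the 31 adipocyte genes tested, 25 passed with the mesenchymal value higher and 0 with the epithelial value higher, with a median difference of -1.83 beside -0.26 over all genes. Mesenchymal calls covered 20.4% of all genes. Animal by animal the median of the list was -1.15, -1.51, -1.72, -1.42 and -2.41, against -0.26, -0.35, -0.25, -0.18 and -0.38 over all genes. The list's median level lay between 6.68 and 8.03 in epithelial pieces and between 8.68 and 10.54 in mesenchymal ones, with no overlap. With animals 963, 964, 1037, 1059 and 1103 left out in that order, 24, 9, 0, 0 and 22 of its genes were called. Over all 5957 genes, 881, 71, 0, 0 and 602 of the 1215 mesenchymal calls then stayed, and 93, 0, 0, 0 and 13 were new. LPL, lipoprotein lipase, differed by -2.13 ± 0.28 (SE, limma adjusted p = 0.0165) and FABP4, a fatty acid carrier of fat cells, by -1.35 ± 0.21 (adjusted p = 0.0217). CIDEA, a lipid droplet protein, differed by -2.41 ± 0.28 (adjusted p = 0.0165). It is also listed among the luminal genes, since mammary cells use it in milk fat secretion. FASN and SCD, the fatty acid synthase and the desaturase of fat synthesis, differed by -1.39 ± 0.2 and -1.23 ± 0.28, and other probe sets of FASN gave -2.8 and -2.74. After quantile normalization 18 of the 31 adipocyte genes were still called, with a median of -1.45.

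**Figure D2:**
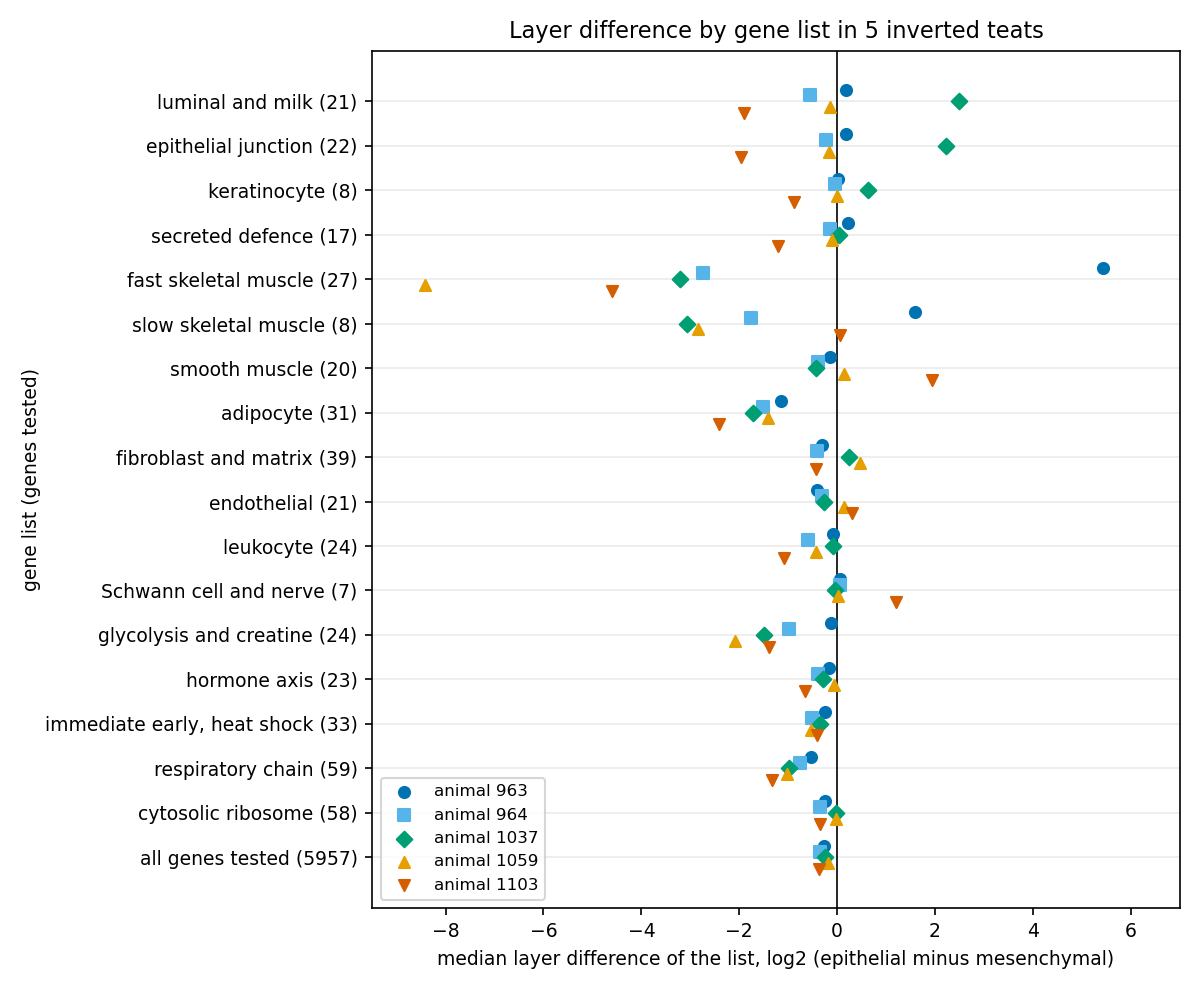
Median layer difference, epithelial minus mesenchymal on the log2 scale, of each gene list, with a point for each of the 5 animals. The adipocyte list, from -1.15 to -2.41, and the respiratory chain list, from -0.53 to -1.34, lie further below 0 in every animal than the median of all genes (-0.18 to -0.38), while the luminal list runs from -1.91 in animal 1103 to 2.48 in animal 1037 and the fast muscle list from -8.42 in animal 1059 to 5.44 in animal 963.

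Genes of the mitochondrial respiratory chain were higher in mesenchymal tissue nearly throughout. Its complexes pass electrons from nutrients to oxygen and drive ATP synthesis. Of 59 genes tested, 58 passed on the mesenchymal and 0 on the epithelial side, and all 59 had the same sign in all 5 pairs, against 40.4% of all genes. The median difference of the list was -0.91, and -0.53, -0.76, -0.98, -1.02 and -1.34 animal by animal. Without animals 963, 964, 1037, 1059 and 1103 in turn, 52, 1, 0, 0 and 44 of its genes were called. Among all 5957 genes, 881, 71, 0, 0 and 602 of the 1215 mesenchymal calls then stayed, and 93, 0, 0, 0 and 13 were new. COX5B, a subunit of complex IV, measured 10.21, 10.16, 10.6, 10.22 and 10.2 in epithelial and 11.09, 11.05, 11.63, 11.34 and 11.51 in mesenchymal pieces, a difference of -1.05 ± 0.13 (SE, limma adjusted p = 0.0165). Its layers did not overlap, and the epithelial values lay within a narrow band. NDUFA11, a subunit of complex I, differed by -1.02 ± 0.14 (SE, adjusted p = 0.0187).

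Each complex took part. All 33 genes of complex I passed, with a median difference of -0.95 and the lowest value in NDUFA9 at -1.5, as did 4 of 4 of complex II (median -1.17), 2 of 2 of complex III (-1.01) and 6 of 6 of complex IV (-0.77). Of the ATP synthase, 12 of 13 passed (-0.76), the exception being ATP5J, and the electron carrier CYCS passed at -1.14. The size depended on the scale of the values. After quantile normalization the list's median was -0.51, and 3 of the 59 genes passed on the mesenchymal side, where 2.42% of all genes did. The mesenchymal value was then higher in all 5 pairs for 47 of the 59, against 21.9% of all genes. The list's median level lay between 8.92 and 9.14 in epithelial pieces and between 9.61 and 10.3 in mesenchymal ones. Beside it, the adipocyte list stood at 6.68 to 8.03 against 8.68 to 10.54, and the fast muscle list at 3.26 to 8.22 against 2.86 to 12.17. The difference between 3' and 5' control probe sets is a sign of RNA integrity. For GAPDH it was 1.09 to 1.65 in epithelial against -0.15 to 1.15 in mesenchymal pieces. For actin the layers lay together, at 1.1 to 1.68 against 0.85 to 1.72. The part of these lists and controls in the result was not tested.

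Of 24 genes of glycolysis and creatine use tested, 9 passed on the mesenchymal and 0 on the epithelial side, with a median of -1.27. The 9 are 37.5% of the list, against 20.4% of all genes, but with quantile normalization 1 of them was called and the median was -0.82. ALDOC, an aldolase, differed by -2.48 ± 0.32 (SE, limma adjusted p = 0.0165) and LDHB, a lactate dehydrogenase subunit, by -1.25 ± 0.19 (adjusted p = 0.0209). PGK1, LDHA, PGM1, TPI1, GPI, ENO1 and HK1 also passed. Animal 963, whose muscle genes ran the other way, had a list median of -0.13 against -0.98 to -2.08 in the other 4. The list shares genes with the fast muscle list, among them CKM and CKMT2, at 6.58 and 3.46 in animal 963. Without animal 963, 15 of the 24 genes passed. Over all 5957 genes, 881 of the 1215 mesenchymal calls then stayed and 93 were new. Cytosolic ribosomal proteins gave few calls: 2 of 58 (3.45%) passed as higher in mesenchymal tissue, RPS27L at -0.64 ± 0.15 and RPLP2 at -0.52 ± 0.14. The mean difference was still below 0 for 56 of the 58. In 30 of them the mesenchymal value was higher in all 5 pairs, against 40.4% of all genes. The list's median, -0.22 beside -0.26 over all genes, moved to 0.08 with quantile normalization.

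GHR, the receptor of growth hormone, measured 6.66, 5.13, 6.03, 5.76 and 5.9 in epithelial and 7.54, 6.59, 7.11, 7.52 and 7.85 in mesenchymal pieces, a difference of -1.42 ± 0.19 (SE, limma adjusted p = 0.0172). Each mesenchymal piece exceeded its own epithelial piece, with overlap between the groups at the low mesenchymal value of animal 964. Of 23 genes of the prolactin, growth hormone and steroid list, 5 (21.7%) passed on the mesenchymal side, close to the 20.4% of all genes, and 1 on the epithelial side. With quantile normalization these were 2 and 1. The other mesenchymal ones were HSD17B4, an enzyme of peroxisomal fatty acid and steroid turnover (-1.41 ± 0.21), IGFBP6, which binds insulin-like growth factors (-1.13), STAT5B, a transcription factor below the prolactin and growth hormone receptors (-0.86), and INSR, the insulin receptor (-0.55 ± 0.15). The epithelial one was JAK2, the kinase coupled to both receptors, at 0.89 ± 0.13 (adjusted p = 0.021). IGFBP6, STAT5B and JAK2 were named after their values were seen.

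Genes higher in epithelial tissue were few and their differences smaller, from 0.54 to 1.75 with a median of 0.89. ALCAM, a cell adhesion molecule, measured 8.82, 9.7, 8.62, 9.14 and 9.24 in epithelial and 7.78, 8.98, 6.68, 7.8 and 6.31 in mesenchymal pieces, a difference of 1.59 ± 0.31 (SE, limma adjusted p = 0.0262). The epithelial piece was higher in every pair, and the groups overlapped through the mesenchymal value of animal 964. PPP1R14D, an inhibitor of protein phosphatase 1, measured 6.47, 7.41, 6.09, 6.9 and 6.6 against 6.01, 6.72, 3.5, 4.48 and 4.0, a difference of 1.75 ± 0.38 (SE, adjusted p = 0.0298). Its mesenchymal values were low in animals 1037, 1059 and 1103, where they lay under the 30th percentile of their array, and near the epithelial ones in 963 and 964. PTGFR, the receptor of prostaglandin F2 alpha, measured 5.71, 7.35, 7.88, 8.15 and 6.4 against 5.39, 5.83, 5.72, 6.01 and 5.2, a difference of 1.47 ± 0.28 (SE, adjusted p = 0.0251). Only the epithelial value of animal 963 fell within the mesenchymal range.

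The other largest epithelial differences were between 1.14 and 1.47. ARID4B, a part of a histone deacetylase complex, differed by 1.43 ± 0.36 (SE, limma adjusted p = 0.0412), but its other probe sets gave 0.47 to 0.58 and did not pass. BAZ2B, a bromodomain protein, differed by 1.26 ± 0.26, ATRX, a chromatin remodeller, by 1.24 ± 0.32 and BPTF, a subunit of a nucleosome remodelling complex, by 1.14 ± 0.29 (adjusted p from 0.0275 to 0.0445 over these 3). EEA1, a tether of early endosomes, differed by 1.47 ± 0.39, CCDC186 by 1.4 ± 0.33 and ST8SIA4, which adds polysialic acid to cell surface proteins, by 1.2 ± 0.31 (adjusted p from 0.0357 to 0.0488). Mesenchymal values lay under the 30th percentile of their array in 3 animals for EEA1 and ARID4B, in 2 for ATRX and in 1 for CCDC186, so these differences rest in part on low values. The difference was largest in animal 1103 for 28 of the 41 epithelial and 774 of the 1215 mesenchymal genes. Many epithelial calls carried no gene name: 77 of 298 probe sets (25.8%) had a single symbol, against 1511 of 2197 (68.8%) of the mesenchymal ones and 48.1% of all tested.

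Of 21 luminal and milk genes, 0 passed on the epithelial side, against 0.688% of all genes, and 3 (14.3%) on the mesenchymal side, against 20.4%. At those rates neither count is a result about these genes. On the epithelial side 0 had an unadjusted p under 0.05, against 4.73% of all genes. The 3 mesenchymal calls were CIDEA, PROM1, a membrane glycoprotein, at -0.94 ± 0.22 (SE, limma adjusted p = 0.0344) and FOLR1, a folate receptor, at -0.95, the last named after its value was seen. The list's median was 0.19, -0.55, 2.48, -0.15 and -1.91 animal by animal. KRT19 had a layer difference of 0.58 ± 1.12 (SE, 95% interval -2.04 to 3.2, adjusted p = 0.736), so a large difference either way lies within its interval. The milk protein CSN2, beta-casein, measured 14.8, 15.33, 4.66, 5.52 and 5.82 in epithelial and 12.94, 16.17, 4.92, 5.95 and 5.41 in mesenchymal pieces. Animals 963 and 964 were high in both pieces and the other 3 low in both.

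Cell junction genes gave 0 calls in 22 by limma's adjusted p, with 0 on the epithelial and 2 (9.09%) on the mesenchymal side at an unadjusted p under 0.05, against 4.73% and 38.8% of all genes. The lowest p belonged to MAL2, a protein of apical transport, at -1.67 ± 0.45 (SE, adjusted p = 0.0501), and its other probe set gave 0.57. Next came JUP, plakoglobin, at -0.47 ± 0.14 (adjusted p = 0.0669). The 8 keratinocyte and barrier genes gave 0 calls and 1 unadjusted p under 0.05 in each direction: CST6, a cystatin of skin, at -0.91 ± 0.27 (adjusted p = 0.0634) and IVL, involucrin, at 0.51 ± 0.16 (adjusted p = 0.0731). Of 17 secreted defence genes 1 (5.88%) passed, on the mesenchymal side, where 20.4% of all genes did. It was PGLYRP2, which cleaves bacterial cell wall, at -1.67 ± 0.27 (adjusted p = 0.0232). SAA2, an acute phase protein, gave -0.4 ± 0.18 (adjusted p = 0.153).

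Skeletal muscle genes had the widest spread between animals. The 27 genes of fast and common muscle had list medians of 5.44, -2.74, -3.21, -8.42 and -4.6. Of these genes 0 passed by limma's adjusted p or had an unadjusted p under 0.05, against 20.4% and 38.8% of all genes on the mesenchymal side. Without animal 963, whose muscle genes ran the other way, 18 of the 27 passed as higher in mesenchymal tissue. Over all 5957 genes, 881 of the 1215 mesenchymal calls then stayed and 93 were new. With any other animal left out, 0 of the 27 passed. Without 1037 or 1059 the same held for every gene. Among the 18 were TNNT3 at -7.8 (adjusted p = 0.043) and TNNC2 at -6.05 (adjusted p = 0.045), both parts of the troponin switch of fast muscle. TNNT3 was listed at 0 in the epithelial pieces of animals 1059 and 1103 and in the mesenchymal piece of animal 963. CKMT2, the mitochondrial creatine kinase, and AMPD1, the muscle AMP deaminase, had the smallest p of the list, with -2.89 ± 1.29 and -3.53 ± 1.6 (adjusted p = 0.157 and 0.161). Of 8 slow muscle genes 1 (12.5%) passed on the mesenchymal side, against 20.4% of all genes. It was MYL3, a myosin light chain, at -0.89 ± 0.22 (adjusted p = 0.0415), and ACTN2, alpha-actinin, gave -1.49 ± 0.74 (adjusted p = 0.19).

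Mesenchymal calls made up 5.0% of the smooth muscle, 10.3% of the fibroblast and 16.7% of the basement membrane list, against 20.4% of all genes. Of 20 contractile genes of smooth muscle, FHL1 passed at -0.79 ± 0.17 (SE, limma adjusted p = 0.031), and the pericyte gene RGS5 gave 0.63 ± 0.3 (adjusted p = 0.173). TAGLN, an actin-binding protein of smooth muscle, measured 10.84, 10.76, 11.09, 10.84 and 12.62 in epithelial and 10.91, 11.29, 11.42, 10.38 and 10.31 in mesenchymal pieces. The epithelial piece of animal 1103 was the high one, and the other 9 values overlapped. Of 39 fibroblast and matrix genes 4 passed on the mesenchymal and 0 on the epithelial side. COL15A1, a basement membrane zone collagen, differed by -0.95 ± 0.16 (adjusted p = 0.0232) and TNXB, a tenascin, by -0.98 ± 0.2 (adjusted p = 0.0275), and MFAP5 and TNC also passed. The list's median moved from -0.1 to 0.29 with quantile normalization, where 0 of its genes passed. Of 12 basement membrane and integrin genes COL4A2, a type IV collagen chain (-0.75 ± 0.16), and SGCD, a sarcoglycan (-1.13 ± 0.26), passed.

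Of 21 endothelial genes 1 (4.76%) passed, on the mesenchymal side, where 20.4% of all genes did. It was PDPN, podoplanin of lymphatic vessels, at -0.64 ± 0.17 (SE, limma adjusted p = 0.044), and ENG, endoglin, gave -0.52 ± 0.17 (adjusted p = 0.0793). The 24 leukocyte genes gave 0 calls with 9 higher in mesenchymal tissue at an unadjusted p under 0.05, a share of 37.5% beside 38.8% of all genes. The smallest p belonged to TYROBP and FCER1G, signalling adaptors of myeloid cells, at -0.58 ± 0.18 and -0.79 ± 0.26 (adjusted p = 0.0709 and 0.0781). The 7 Schwann cell and nerve genes and the 5 melanocyte genes gave 0 calls. In the first, GAP43 and S100B gave -0.75 ± 0.26 and 0.5 ± 0.21, each with an unadjusted p under 0.05. In the second, EDNRB and TYR gave -0.36 ± 0.17 and 0.32 ± 0.21, and 0 genes had an unadjusted p under 0.05.

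Genes of teat development were called at about the rate of all genes. Of 16 tested, 3 (18.8%) passed on the mesenchymal side, against 20.4% of all genes, and 0 on the epithelial side, against 0.688%: HOXA9 and HOXD8, homeobox factors of body position, at -1.89 ± 0.44 (SE, limma adjusted p = 0.0355) and -0.77 ± 0.14 (adjusted p = 0.0242), and TNC. With quantile normalization 0 of the 16 passed. PTHLH measured 7.51, 7.59, 7.07, 6.93 and 4.66 in epithelial and 7.51, 7.67, 5.36, 6.75 and 5.79 in mesenchymal pieces, a difference of 0.14 ± 0.36 (SE, 95% interval -0.7 to 0.98, adjusted p = 0.806). As with the keratins, animal 1037 was lower in its mesenchymal and animal 1103 in its epithelial piece. The receptor PTH1R gave -0.12 ± 0.22 (95% interval -0.64 to 0.4) and the homeobox gene MSX1 -0.24 ± 0.18 (-0.66 to 0.17).

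Of 11 Wnt genes, 22 TGF-beta and BMP genes and 21 growth factors and receptors, 1, 1 and 2 passed on the mesenchymal side (9.09%, 4.55% and 9.52%, against 20.4% of all genes) and 0 on the epithelial side. FZD4, a Wnt receptor also known from vessels, passed at -1.01 ± 0.16 (SE, limma adjusted p = 0.0217). DKK2, a Wnt modulator, gave 0.76 ± 0.22 (adjusted p = 0.0583), and passed with quantile normalization at 1.02 (adjusted p = 0.049), but its other probe set gave -0.22 and did not pass. The BMP ligand BMP7 passed at -0.56 ± 0.14 (adjusted p = 0.0447), and the receptor BMPR1A gave 0.65 ± 0.22 (adjusted p = 0.0818). The growth factor calls were VEGFB, a vascular growth factor, at -0.78 ± 0.14 (adjusted p = 0.0242), and INSR.

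Of 33 immediate early and heat shock genes 4 (12.1%) passed on the mesenchymal side, against 20.4% of all genes, and 1 with quantile normalization. The 4 were GADD45A, a stress-induced growth arrest gene, at -2.01 ± 0.25 (SE, limma adjusted p = 0.0165), the chaperone DNAJB1 at -1.05 ± 0.18 (adjusted p = 0.0237), BAG3 and HSPE1. Of 23 cell cycle genes 4 (17.4%) passed there, and 0 with quantile normalization: CDKN1A, an inhibitor of cyclin-dependent kinases, at -1.71 ± 0.29 (adjusted p = 0.0233), the replication clamp PCNA at -0.63 ± 0.14 (adjusted p = 0.0323), UBE2C and RRM2. Of 22 interferon response genes 1 (4.55%) passed on the epithelial side, against 0.688% of all genes, and 0 on the mesenchymal side, against 20.4%. It was EIF2AK2, the kinase activated by double-stranded RNA, at 0.84 ± 0.23 (adjusted p = 0.0492). Its difference was 1.88 in animal 1103 and 0.47 to 0.72 in the others. MX2 gave -0.52 ± 0.15 (adjusted p = 0.0584). Of 13 genes in common use as references 4 (30.8%) were higher in mesenchymal tissue, SDHA at -1.3 ± 0.2 (adjusted p = 0.0214), PGK1 at -1.46 ± 0.31 (adjusted p = 0.0294), PPIA and EEF1A1, and the list's median was -0.54. With quantile normalization 0 of the 13 passed and the median was -0.25. The 2 sex-linked genes KDM6A and EIF1AY gave 0.4 ± 0.18 and 0.05 ± 0.15 (adjusted p = 0.15 and 0.847).

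The pairs contributed unequally. Over all probe sets, the share with a layer difference beyond 1 in either direction was 3.42%, 3.78%, 13.3%, 14.9% and 28.3%. Layer differences correlated between animals with r from -0.16 to 0.6 across probe sets, which are not independent, and those of animal 963 with r from -0.16 to 0.14. Leaving out 1 pair left 4, and the number of calls depended on which. Without animal 963, 348 probe sets were called on the epithelial and 1757 on the mesenchymal side. Without 1103 these were 85 and 1110, without 964 they were 5 and 146, without 1037 they were 0 and 1, and without 1059 both were 0. At an unadjusted p under 0.05, 4498 probe sets remained without 1037 and 4880 without 1059. Of the 41 and 1215 genes called over 5 pairs, 23 and 881 were still called without 963, 10 and 602 without 1103, 0 and 71 without 964, and 0 and 0 without 1037 or 1059. All 41 and all 1215 kept an unadjusted p under 0.05 in each of the 5 cases. They had been selected at a stricter threshold over the same pairs, so this count is no separate evidence that the differences hold.

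Single genes show how the calls were lost. The adjusted p of GPD1 by limma was 0.024, 0.048, 0.087, 0.084 and 0.022 with animals 963, 964, 1037, 1059 and 1103 left out in that order, and that of COX5B was 0.03, 0.05, 0.091, 0.084 and 0.022. ADIPOQ was at 0.03, 0.062, 0.098, 0.087 and 0.029, and ALCAM at 0.037, 0.053, 0.1, 0.087 and 0.035. Among the larger differences, CHIA, an acidic chitinase, was lost without each of 963, 964, 1037 and 1059, LOC100523909 without 963, and PPP1R1A and MACROD1 without 1103. MAL2 and the creatine kinase CKB passed only without 1103 (adjusted p = 0.036 and 0.031). CHIA measured 0.0, 10.56, 0.0, 0.0 and 5.8 in epithelial and 5.54, 14.72, 5.29, 4.97 and 5.1 in mesenchymal pieces, a difference of -3.85 ± 0.87 (SE, adjusted p = 0.0329). It was listed at 0 in 3 epithelial pieces and was higher in the epithelial piece of animal 1103 alone.

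The same differences were taken from a fit over all 30 arrays, in which the normal teats help to set the spread and animal is a random block. Of the 5957 genes, it called 173 (2.9%) on the epithelial and 1956 (32.8%) on the mesenchymal side of inverted teats, including 36 of the 41 and 1187 of the 1215 paired calls. With the 2 inverted teat arrays of each animal left out in turn, 23 and 1127 genes were called in all 5 cases. Of the paired calls, 18 of 41 and 995 of 1215 were among them. They include 19 of the 20 genes with the largest differences named above, the exception being ALCAM with a highest adjusted p of 0.099. Animal 1103 weighed most on the epithelial calls: without it 28 of the 173 were called, against 162 without 963. All 59 respiratory chain genes passed in this fit, and 57 to 58 did with an animal left out. Of the 31 adipocyte genes 24 passed, and 22 to 25 with an animal left out.

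**Figure D3:**
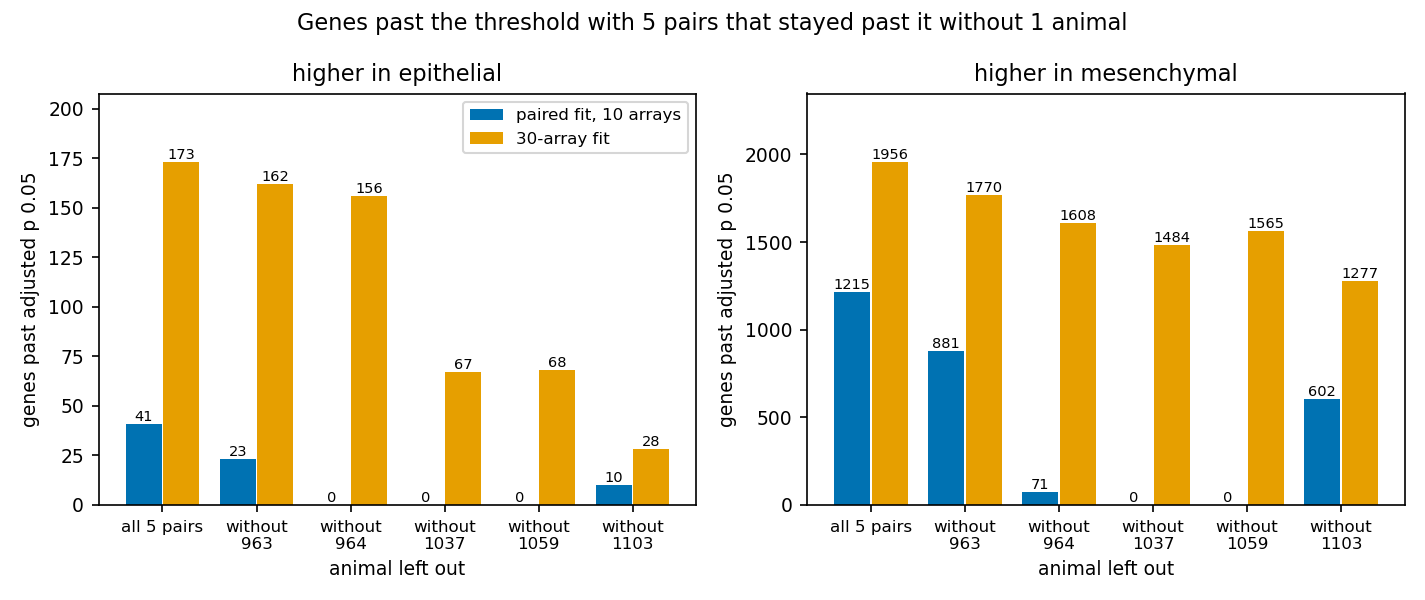
Number of genes called over 5 pairs, and how many of them stayed called with each animal left out in turn, for the paired test of the inverted teats and for the fit of all 30 arrays, with genes higher in epithelial tissue on the left and in mesenchymal tissue on the right. The paired test keeps 0 of 41 and 0 of 1215 without animal 1037 or 1059, while the 30-array fit keeps at least 28 of 173 and 1277 of 1956.

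Whether the layer difference was particular to inverted teats was tested directly. Against the normal teats of the same 5 animals, 0 of 18273 probe sets (0.0%) passed limma's test of the change in layer difference, with 704 at an unadjusted p under 0.05 and a smallest adjusted p of 0.893. Against the normal teats of the 5 non-affected animals, 0 of 18283 (0.0%) passed, with 575 at an unadjusted p under 0.05. An unmoderated test gave 0 calls in both comparisons too, with 854 and 776 at an unadjusted p under 0.05. The layer difference in inverted minus that in normal teats was -0.19 for COX5B (95% interval -0.55 to 0.18), 0.41 for GPD1 (-0.49 to 1.31) and -0.54 for ADIPOQ (-1.49 to 0.41). It was 0.4 for UCP3 (-1.1 to 1.91), 0.99 for PPP1R1A (-0.48 to 2.45), -3.38 for KRT19 (-7.1 to 0.35), -3.99 for the milk iron carrier LTF (-7.65 to -0.33) and 5.16 for MYLPF (1.42 to 8.89, adjusted p = 0.89).

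**Figure D4:**
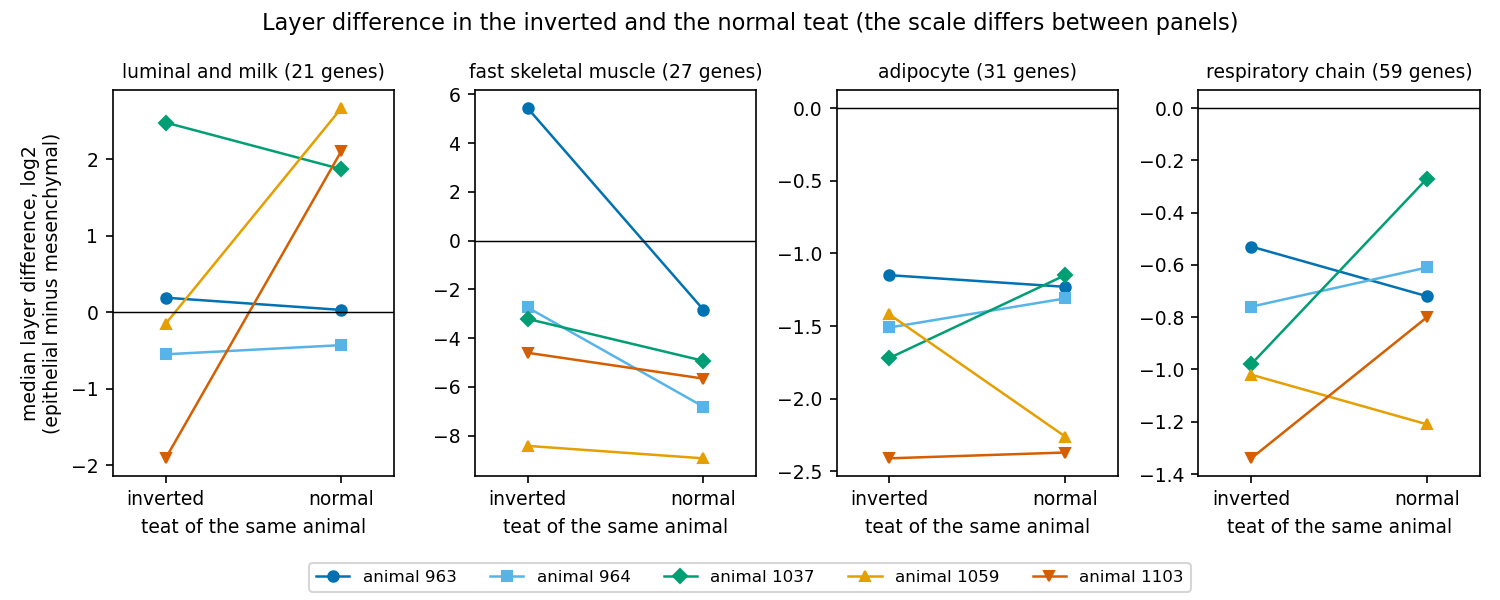
Layer differences, epithelial minus mesenchymal on the log2 scale, in the inverted and in the normal teat of the same 5 animals. The adipocyte and respiratory chain medians lie below 0 in both teats of every animal, whereas the luminal median of animals 1059 and 1103 is above 2 in the normal teat and below 0 in the inverted one.

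Animal by animal, the adipocyte and respiratory chain lists kept their sign between teats, while the luminal and fast muscle lists did not in every animal. In normal teats of the 5 animals the adipocyte list had medians of -1.23, -1.31, -1.15, -2.26 and -2.37 and the respiratory chain list -0.72, -0.61, -0.27, -1.21 and -0.8, all below 0 as in inverted teats. The luminal list had 0.03, -0.43, 1.87, 2.67 and 2.11, and the fast muscle list -2.83, -6.81, -4.93, -8.93 and -5.66. The sign of the luminal median differed between the teats of animals 1059 and 1103, and that of the muscle median between those of animal 963. In animal 964 the muscle median was -2.74 in the inverted and -6.81 in the normal teat, with no change of sign. In normal teats the mesenchymal mean of KRT8, KRT18 and KRT19 was 5.78 in animal 1059 and 2.38 in animal 1103, against 9.65 and 8.76 in their inverted teats.

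The genes with the smallest p in these tests were named by rule and did not pass the adjustment. Against normal teats of the same animals, the layer difference was higher in inverted teats by 1.23 ± 0.22 (SE, 95% interval 0.7 to 1.75, limma adjusted p = 0.89) for APOA2, an apolipoprotein, by 4.63 ± 0.96 for RYR1, the calcium channel of skeletal muscle, and by 1.17 ± 0.25 for DEFB1, a defensin. It was lower by -0.62 ± 0.16 for FAM114A1, -1.53 ± 0.4 for STEAP4, a metalloreductase, and -0.82 ± 0.22 for LGALS8, a galectin. Against non-affected animals the values were 0.79 ± 0.19 for NR5A1, a steroidogenic transcription factor, 0.92 ± 0.27 for XRCC4, a DNA repair protein, 1.06 ± 0.31 for CHGB, a granin, -1.31 ± 0.31 for SLC26A6, an anion exchanger, -0.71 ± 0.18 for PMM1, a phosphomannomutase, and -0.86 ± 0.22 for HPX, hemopexin (adjusted p = 1.0 for each).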

How the data were processed

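Total RNA (500 ng per labelling reaction) was hybridised to Affymetrix Porcine Genome arrays. The deposited values are log2 probe set summaries from the authors. The base was inferred from their range, the submitters' processing notes name GCOS 1.1.1 and PLIER with no role, and normalization between arrays is not given in the sources used here. The values were used as deposited, and every column was used. Of 24123 probe sets, 124 controls were left out. Tests covered probe sets exceeding the 30th percentile of the array on at least 5 arrays of the fit. Symbols came from the platform annotation, updated by Entrez ID to RefSeq: 10099 probe sets have 1 symbol, 198 several and 13826 none here, and 9989 of the first were found in RefSeq. Each gene stands for 1 single-symbol probe set, that of highest mean across all 30 arrays. No sequences or coordinates were used.

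Layer differences per teat were tested with limma 3.58.1 in R 4.3.3 (lmFit, eBayes): against 0 over 5 pairs, inverted against normal teat within animals, and 5 against 5 non-affected animals. Benjamini-Hochberg adjustment covered all probe sets tested, with a threshold of 0.05. Tables were made with pandas 2.3.3 in Python 3.11.15. The fits were checked on simulated data, with pass criteria only for an equal spread in every probe set. The spread of the real data differs between probe sets. Both layers of a number come from 1 animal, which pairs them; deviations from the layer means correlated between layers with r = -0.05, 0.66, 0.38, 0.03 and 0.05 for animals 963, 964, 1037, 1059 and 1103. Alternatives varied the scale, filter, variance, block, animals and probe set. Leaving out animals in the 30-array fit was chosen after seeing the data.

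The genes named are the 10 largest differences per direction among calls with 1 sign in 5 pairs, the 2 smallest p of each gene list, preset cell type markers, the 3 smallest p per direction between teats, and, per animal, the 2 largest differences lost or gained without it. Genes outside this rule were picked after their values were seen: these are other list members that passed, and ATP5J, NDUFA9 and CYCS. The comparison, members and gene lists were chosen with earlier results of these data known. No test of a gene list was made; lists are described by counts and medians.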

Additional observations from a re-analysis of the deposited data

Results flagged for a closer look

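In 152 sets of 5 layer differences (named genes and list medians), the highest or lowest animal stood apart by Dixon's criterion in 9. Chance gives about 1 in 20 for independent sets that were not selected. Many of these genes were selected by the same differences and lists share members, so that rate cannot be applied here. Animal 1103 was the one apart in 5 of the 9. Its difference was 1.88 in EIF2AK2 against 0.47 to 0.72 in the other animals, and 0.7 in CHIA against -5.54 to -4.16. Its list medians were -1.21 for secreted defence genes (others -0.14 to 0.23), 1.94 for smooth muscle genes (-0.44 to 0.14) and 1.2 for Schwann cell and nerve genes (-0.05 to 0.06). Animal 1037 stood apart in KRT8 with 4.21 (others -1.64 to -0.02) and in KRT18 with 4.62 (-1.48 to 0.14). Animal 964 stood apart in FZD4 with -0.45 (others -1.24 to -1.06), and animal 1059 in the median of 2 sex-linked genes with 0.62 (others 0.07 to 0.18).

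APOA2 had a layer difference above 0 in all 5 inverted teats (0.59, 0.25, 0.21, 1.05 and 0.32) and below 0 in all 5 normal teats of the same animals (-0.6, -0.87, -0.47, -0.01 and -1.77). The change of 1.23 did not pass limma's adjustment over all probe sets (adjusted p = 0.89).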

How the results depend on the processing

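Calls depended on the setting, and the cause was not tested. Probe sets higher in epithelial tissue numbered 298, against 169 with quantile normalization, 144 with no replicate block, 511 with animal as a random replicate block, 878 over all 30 arrays, 1 with limma's trend and robust options, 0 with no filter and 0 unmoderated (smallest adjusted p 0.052). Probe sets higher in mesenchymal tissue numbered 2197, against 319 with quantile normalization, 1061 with median centring, 3607 over all 30 arrays, 3582 with trend and robust options, 1 with no filter and 0 unmoderated. With a pair left out they ran from 0 to 348 and from 0 to 1757. In the 30-array fit the leave-out ranges were 156 to 1246 and 2315 to 3420. Comparisons with normal teats gave 0 calls under every alternative run. Of 59 named genes called, 57 were kept over all 30 arrays, 55 with a random replicate block, 45 with median centring, 24 with quantile normalization and 0 unmoderated or with no filter; none reversed. Of 23 other probe sets of named genes, 19 gave the same outcome, called or not called, 3 lost the call and 1 gained it. None was called in the opposite direction, but the uncalled ones of MAL2 and DKK2 had the opposite sign. Precision is limited by having 5 pairs.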
